A study of Homo sapiens with 12 samples.

Results

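The Eph receptor genes of HMC3 cells were followed across 4 treatment groups. The set held 10 genes, EPHA2, EPHA3, EPHA4, EPHA5, EPHA7, EPHB1, EPHB2, EPHB3, EPHB4 and EPHB6. They were listed by name, but with earlier results of these data known. EPHA1, EPHA6, EPHA8 and EPHA10 lay outside the set. The data held transcripts of 36315 genes. All 10 were among the 21601 genes tested, which had at least 10 estimated counts over the 12 libraries. HMC3 cells are an immortalized human line, given as microglia in the labels. All cells were transfected with an siRNA for 48 h and then incubated for 24 h with 2 ug/mL of an Fc protein pre-clustered with anti-human IgG. The EphB2 + ephrin-B1 siRNA group received EphB2-Fc after ephrin-B1 siRNA, and the EphB2 group received EphB2-Fc after negative control siRNA. The ephrin-B1 siRNA group received Ctrl-Fc after ephrin-B1 siRNA, and the Ctrl group received Ctrl-Fc after negative control siRNA. Each group had 3 libraries of rRNA-depleted total RNA, numbered as replicates 1 to 3.

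Eph receptors are receptor tyrosine kinases that bind ephrins anchored in the membrane of a neighboring cell. EphA receptors mostly bind the lipid-anchored ephrin-A proteins, and EphB receptors mostly bind the transmembrane ephrin-B proteins. Binding sends a forward signal into the cell with the receptor and a reverse signal into the cell with the ephrin. EphB2-Fc carries the outer part of EphB2 and engages ephrin-B on the cells, whose reverse signal is the subject of the study. In the brain, Eph receptors are known for axon guidance and the shaping of synapses. Because EphB2-Fc was added as a protein, EPHB2 RNA was that of the cells. The comparisons below ask whether the cells' own receptor RNA differed after EphB2-Fc or after ephrin-B1 siRNA. Matches of the siRNA to EPHB2, CDC42 or other transcripts were not analysed here, so lower ephrin-B1 and other effects of the siRNA cannot be told apart.

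Estimated counts per library ranged from 13230689 to 25785591. Libraries were compared in CPM, counts scaled to a common library total after TMM normalization. Genes were compared within libraries in TPM, which are scaled to a common total and also allow for transcript length. CPM was preferred for comparing libraries, and TPM was used there only as an alternative, since transcripts under 500 bases held between 209683 and 481925 TPM of a library with only 1.49% to 2.29% of its counts. EFNB1, the target of the siRNA, had 7.10, 6.60 and 8.70 CPM in ephrin-B1 siRNA libraries, against 20.4, 17.5 and 19.3 CPM in Ctrl. It had 6.56, 6.03 and 6.38 CPM in EphB2 + ephrin-B1 siRNA libraries, against 15.6, 18.8 and 18.4 CPM in EphB2. The libraries thus followed their siRNA labels. Of 12 microglia markers, AIF1, CX3CR1, TYROBP and C1QA had 3 counts or fewer summed over all libraries. In that list 3 had a median of at least 1 TPM, CD68 with 25.8, CSF1R with 2.03 and TMEM119 with 1.09 TPM. COL1A1, THY1 and PDGFRB, of the fibroblast and pericyte list, had medians of 893, 231 and 83.6 TPM. Of that list of 11 genes 7 had a median of at least 1 TPM, while COL6A3, DCN and COL3A1 had medians of 0.768, 0.875 and 0.0229 TPM and LUM had 2 counts in all.

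EPHA2, EPHB4 and EPHB2 made up nearly all RNA of the 10 genes. Together they held between 95.2% and 97.4% of the summed TPM of the 10 genes, which ranged from 139 to 275 TPM per library (median 176). EPHA2, an ephrin-A1 receptor widely made in epithelial and tumor cells, had the highest level, with a median of 101 TPM (lowest 75.7, highest 161). EPHB4, the receptor of ephrin-B2 known for its role in veins, followed with 50.1 TPM (40.4 to 78.9). EPHB2, whose outer part was used for the Fc protein, had 19.1 TPM (14.3 to 24.1). Each of these genes was above the next in 12 of 12 libraries, although the range of EPHA2 over all libraries overlapped that of EPHB4. EPHA2 alone held 53.0% to 61.2% of the summed TPM.

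The other 7 genes lay far lower. EPHA4, a receptor that binds both ephrin-A and ephrin-B, had a median of 3.64 TPM (2.25 to 7.26) and lay above the next gene in 12 of 12 libraries. This rank rested on short transcripts, since annotated transcripts under 600 bases gave 79.8% of its TPM, and its main transcript, EPHA4-201, averaged 0.489 TPM. EPHB3, an EphB receptor known from intestinal epithelium, had a median of 1.21 TPM (0.432 to 2.02). EPHA5, a receptor best known from neurons, had 0.955 TPM (0.730 to 1.64) and was below EPHB3 in 8 of 12 libraries, so this pair was not separated. EPHB1 followed with a median of 0.367 TPM, EPHA3 with 0.155 TPM and EPHA7 with 0.133 TPM. EPHA3 was above EPHA7 in only 6 of 12 libraries. EPHB6, whose kinase domain is inactive, was lowest with a median of 0.0421 TPM. In GRCh38, EPHA3 (89107621 to 89482134), EPHB1 (134795260 to 135260467) and EPHB3 (184561785 to 184582408) lie on the plus strand of chromosome 3. EPHA4 lies on chromosome 2 (221418027 to 221574202, minus strand), EPHA5 on chromosome 4 (65319563 to 65670495, minus strand), EPHA7 on chromosome 6 (93240020 to 93419687, minus strand) and EPHB6 on chromosome 7 (142855061 to 142871094, plus strand).

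Depth set how firmly these genes could be measured. EPHA2 had 3991 to 8172 estimated counts per library, EPHB4 had 2144 to 4308 and EPHB2 had 714 to 1422. EPHA4 had 41.1 to 121 counts, EPHA5 had 50 to 156 and EPHB3 had 30.1 to 105. In the remaining genes a few reads decided a value. EPHB1 had 3 to 19 counts, EPHA3 had 2.00 to 12.2, EPHA7 had 5 to 21 and EPHB6 had 0 to 7.56. Within CPM, which do not allow for length, 5 of the 10 genes kept the rank they had by TPM, and the order of EPHA2, EPHB4 and EPHB2 was the same. By the most abundant transcript of each gene alone, 7 of 10 kept their rank and EPHA4 moved to rank 6.

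**Figure D1:**
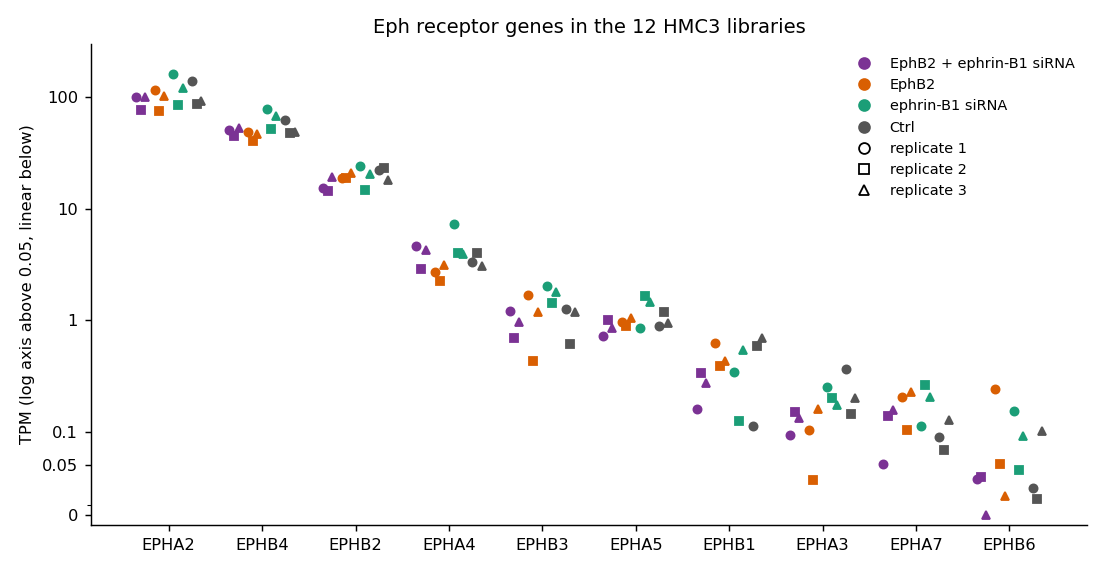
TPM of the 10 Eph receptor genes in each of the 12 libraries, on a log axis that is linear below 0.05. Colors are the groups and shapes the replicates, and EPHA2, EPHB4 and EPHB2 lie above 14 TPM in every library while the other 7 genes lie under 7.3 TPM.

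EPHA2 and EPHB4 were each made mostly as a single transcript. EPHA2 lies on chromosome 1 (16124337 to 16156069, minus strand, GRCh38), and EPHA2-201 took 98.1% of its counts. EPHB4 lies on chromosome 7 (100802565 to 100827523, minus strand), and EPHB4-201 took 90.1% of its counts. EPHB4-206, with a retained intron, took 3.77%. Sequence shared with other genes was rare. Of the 31-base words in EPHA2 transcripts 0.774% also occurred in transcripts of another gene, with EPHB2 among the genes that shared most. The share was 2.24% in EPHB4, mostly with SLC12A9, and 1.21% in EPHB2. It was 5.11% in EPHA5, with its antisense transcript EPHA5-AS1, and the sources used here do not state whether counting used strand.

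EPHB2 lies on chromosome 1 (22710839 to 22921500, plus strand, GRCh38) and was split over several transcripts. EPHB2-203 took 34.9% of its counts, EPHB2-202 took 34.1% and EPHB2-204 took 23.6%. EPHB2-203 and EPHB2-204 had the same version and length in the data and in GENCODE 44. EPHB2-202 had 3152 bases in the data and 11035 bases in GENCODE 44, so its sequence is not shown. The differences within the coding part are printed here because they tell these 2 forms of EPHB2 apart. They were read from the GRCh38 genome at the GENCODE 44 exons. The first lies where exon 9 begins, in chr1:22895557-22896437, with the extra bases of EPHB2-203 in capitals. Exon 9 starts at 22896411 in EPHB2-203 and at 22896414 in EPHB2-204, so that EPHB2-203 holds 3 more bases there, a codon's length.
EPHB2-203 exon join: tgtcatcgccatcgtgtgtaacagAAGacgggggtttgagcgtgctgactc
EPHB2-204 exon join: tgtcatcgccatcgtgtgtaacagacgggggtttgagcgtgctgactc
The second lies at the coding end, from 22913535 on. EPHB2-203 stops in exon 16, whereas EPHB2-204 splices into exon 17 at 22913658 and reads on to 22913870. Capitals mark the bases from the point where the forms part to the end of the stop codon, 6 bases read on in exon 16 in EPHB2-203 and 213 bases of exon 17 in EPHB2-204. The coding part without the stop had 987 codons in EPHB2-203 and 1055 in EPHB2-204.
EPHB2-203 coding end: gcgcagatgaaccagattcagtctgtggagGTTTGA
EPHB2-204 coding end: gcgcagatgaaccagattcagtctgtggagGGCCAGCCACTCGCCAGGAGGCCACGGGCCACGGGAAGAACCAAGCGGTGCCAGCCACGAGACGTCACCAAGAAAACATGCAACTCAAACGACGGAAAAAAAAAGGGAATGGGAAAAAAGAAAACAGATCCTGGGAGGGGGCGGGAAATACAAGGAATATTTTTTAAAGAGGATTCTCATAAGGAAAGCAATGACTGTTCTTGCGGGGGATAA

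In cells with ephrin-B1 siRNA, EPHB2 RNA was lower than in Ctrl and no other Eph receptor gene passed the test. EPHB2 had 46.4, 47.7 and 52.1 CPM in ephrin-B1 siRNA libraries, against 59.5, 73.4 and 65.9 CPM in Ctrl libraries. The groups did not overlap and the siRNA library was the lower in 3 of 3 same-numbered pairs. Replicate 3 was weak as a pair, since deviations from group means correlated by only 0.0141 to 0.180 among its libraries. The share of all genes with 3 of 3 pairs in 1 direction was not counted, here or below. Means were 48.8 ± 2.94 CPM in ephrin-B1 siRNA cells and 66.3 ± 6.95 CPM in Ctrl cells (SD, n = 3 each). On the log2 scale the difference was -0.44 (SE 0.089, edgeR adjusted p = 0.0307, corrected over all genes tested by Benjamini-Hochberg), so EPHB2 RNA fell by 26.5%. In bulk RNA, fewer cells of a type and less RNA per cell cannot be told apart. Among all genes tested in this comparison, 1.81% passed (391 genes, 142 higher and 249 lower). When same-numbered replicates were treated as pairs (a replicate block), EPHB2 had an adjusted p of 0.000674, beside 13.6% of genes passing, and again 1 of 10 receptor genes passed. With the block and without replicate 3, EPHB2 still passed (log2 difference -0.50, edgeR adjusted p = 0.0181), while the count over all genes was 828 in place of 2931. DESeq2 also called EPHB2 (adjusted p = 0.000299, 5.97e-06 with the block), beside 1008 of all genes called, and 2440 with the block.

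The edgeR call of EPHB2 without the block depended on single libraries. It was lost on leaving out ephrin-B1 siRNA replicate 1, 2 or 3 (edgeR adjusted p = 0.104, 0.115 and 0.0818 in that order). Omitting replicate 2 or replicate 3 of Ctrl also ended it (0.127 and 0.124). It was also lost without EphB2 replicate 3 (0.0564) or EphB2 + ephrin-B1 siRNA replicate 3 (0.0538), which entered only through the shared estimate of the spread. Leaving out all libraries of replicate number 1, 2 or 3 ended it as well. The log2 fold change stayed negative over every fit with libraries left out, between -0.51 and -0.35. On TPM it was -0.11 (adjusted p = 0.865 from limma on log2 of TPM + 1), and TPM of the groups overlapped. When TPM was rescaled over transcripts of at least 500 bases, an alternative chosen after seeing the data, EPHB2 had 30.5, 24.4 and 29.2 TPM in ephrin-B1 siRNA, against 32.6, 37.1 and 32.2 TPM in Ctrl. These groups did not overlap, with a log2 difference of -0.27 (adjusted p = 0.367 from limma).

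Each of the 3 main EPHB2 transcripts had a lower mean with the siRNA. EPHB2-203 averaged 16.02 ± 0.247 CPM in ephrin-B1 siRNA cells and 22.7 ± 3.92 CPM in Ctrl cells (SD, n = 3 each). EPHB2-202 averaged 16.5 ± 1.66 CPM in ephrin-B1 siRNA cells and 23.5 ± 2.49 CPM in Ctrl cells. EPHB2-204, the form with the longer coding end shown above, averaged 11.2 ± 1.61 CPM in ephrin-B1 siRNA cells and 16.3 ± 1.37 CPM in Ctrl cells. In each of the 3 transcripts the libraries of the groups did not overlap. This was not counted over all transcripts, and 18.1% of all genes did not overlap in this comparison. Among minor transcripts, EPHB2-207 averaged 2.25 ± 0.208 CPM in ephrin-B1 siRNA cells and 1.29 ± 0.985 CPM in Ctrl cells. EPHB2-205 was also higher (0.953 ± 0.871 against 0.612 ± 0.703 CPM), and EPHB2-201 was lower (1.74 ± 0.543 against 1.83 ± 0.576 CPM). Shares of EPHB2 counts in EPHB2-203, EPHB2-202 and EPHB2-204 were 32.9%, 33.8% and 22.8% in ephrin-B1 siRNA cells, against 34.1%, 35.5% and 24.6% in Ctrl cells. Each of these differences was smaller than the larger SD of the compared groups, as were those of EPHB2-205 and EPHB2-201. The share of the minor EPHB2-207 was 4.64 ± 0.688% in ephrin-B1 siRNA cells and 1.87 ± 1.25% in Ctrl cells, a difference larger than either SD. Reads shared by these transcripts were divided by the authors' quantification, so their values were not independent and were not tested singly.

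**Figure D2:**
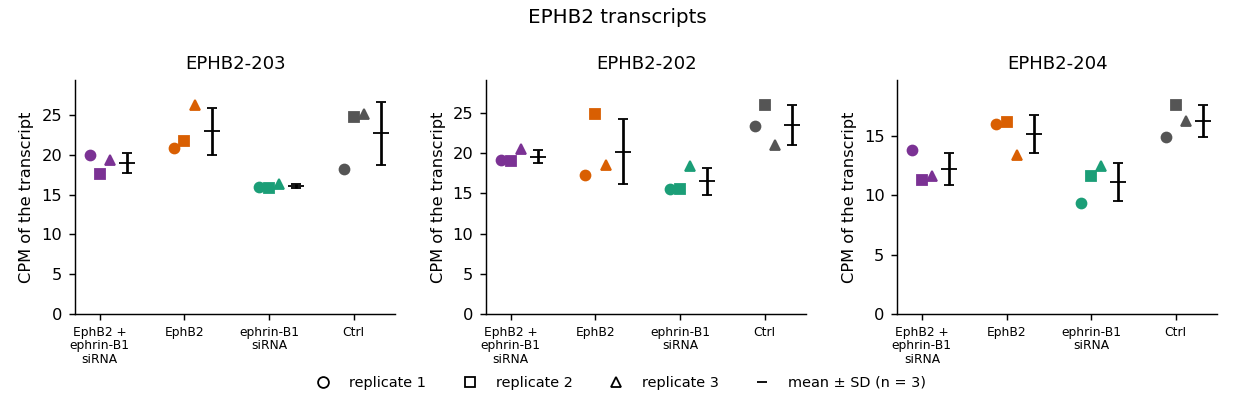
CPM of the 3 main EPHB2 transcripts by group, a point for each library (shapes are replicates) and the mean ± SD of 3 libraries beside the points. In EPHB2-203, EPHB2-202 and EPHB2-204 every ephrin-B1 siRNA library lies below every Ctrl library.

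With EphB2-Fc in both groups, EPHB2 was again lower with the siRNA but did not pass. EPHB2 had 54.9, 51.4 and 55.6 CPM in EphB2 + ephrin-B1 siRNA libraries, against 58.2, 68.5 and 63.4 CPM in EphB2 libraries, and the groups did not overlap. The log2 difference was -0.23 (SE 0.089, edgeR adjusted p = 0.372, 0.0564 with the block), lower in 3 of 3 pairs. No receptor gene passed with edgeR here, with DESeq2 or with limma, while 2 (EPHB2 and EPHB4) had an unadjusted p under 0.05. Of all 21601 genes tested 0.616% passed without the block (2247 had an unadjusted p under 0.05) and 9.93% with it.

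**Figure D3:**
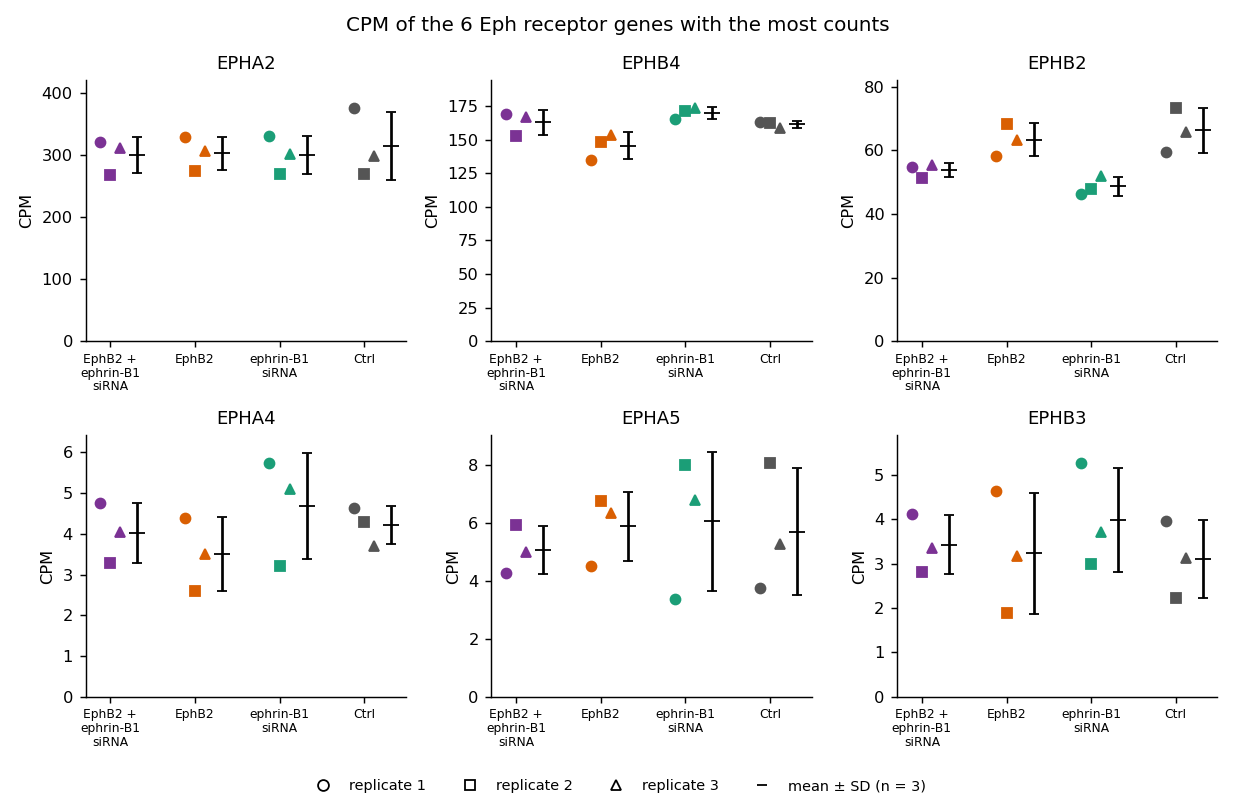
CPM of the 6 Eph receptor genes with the most counts, by group, with a point for each library (shapes are replicates) and the mean ± SD of 3 libraries beside the points. EPHB2 in ephrin-B1 siRNA libraries lies between 46.4 and 52.1 CPM, below the 59.5 to 73.4 CPM of Ctrl libraries, while EPHA2 overlaps between all groups.

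EPHB4, the next most abundant receptor after EPHA2, gave no call with the siRNA. It had 165, 171 and 174 CPM in ephrin-B1 siRNA libraries, against 163, 163 and 159 CPM in Ctrl libraries, and the groups did not overlap. The log2 difference was 0.07 (SE 0.066, edgeR adjusted p = 0.769), higher in 3 of 3 pairs. EPHB2 and EPHB4 were thus the 2 of 10 receptor genes whose groups did not overlap, beside 18.1% of all genes. With EphB2-Fc in both groups EPHB4 had 169, 153 and 167 CPM in EphB2 + ephrin-B1 siRNA libraries, against 135, 149 and 154 CPM in EphB2 libraries. The groups overlapped between 152.6 and 153.6 CPM, and the log2 fold change was 0.16 (SE 0.066, edgeR adjusted p = 0.402, 0.0696 with the block). DESeq2 with the block called EPHB4 in this comparison (adjusted p = 0.0339). EPHB2 was the 1 receptor gene of this comparison whose groups did not overlap, beside 14.6% of all genes.

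The remaining receptors gave no call with the siRNA. EPHA2 had 329, 269 and 302 CPM in ephrin-B1 siRNA libraries, against 376, 269 and 298 CPM in Ctrl libraries, a log2 difference of -0.07 (SE 0.128, edgeR adjusted p = 0.938). Its groups overlapped. EPHB3, a receptor of ephrin-B, had 5.26, 2.98 and 3.70 CPM in ephrin-B1 siRNA libraries, against 3.97, 2.22 and 3.14 CPM in Ctrl libraries. It was higher in 3 of 3 pairs, but the log2 fold change of 0.37 had an SE of 0.33 (adjusted p = 0.784). EPHA4 averaged 4.68 ± 1.31 CPM in ephrin-B1 siRNA cells and 4.21 ± 0.470 CPM in Ctrl cells. EPHA5 averaged 6.05 ± 2.40 CPM in ephrin-B1 siRNA cells and 5.69 ± 2.18 CPM in Ctrl cells. Of the 4 sparse genes, EPHA7 averaged 0.753 ± 0.381 CPM in ephrin-B1 siRNA cells and 0.444 ± 0.0807 CPM in Ctrl cells, and EPHB1 averaged 0.385 ± 0.124 CPM in ephrin-B1 siRNA cells and 0.576 ± 0.381 CPM in Ctrl cells. EPHA3 and EPHB6 averaged 0.494 ± 0.125 and 0.226 ± 0.0455 CPM in ephrin-B1 siRNA cells, and 0.611 ± 0.255 and 0.129 ± 0.115 CPM in Ctrl cells. The median log2 fold change of the 10 genes was 0.08, beside -0.003 over all genes tested.

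EphB2-Fc alone changed no Eph receptor gene past the threshold. With edgeR 0 of 10 genes passed, as with DESeq2, limma and the block, and 1 (EPHB4) had an unadjusted p under 0.05. Of all 21601 genes tested 0.037% passed without the block (8 genes, while 1633 had an unadjusted p under 0.05) and 5.34% with it. EPHB4 had 135, 149 and 154 CPM in EphB2 libraries, against 163, 163 and 159 CPM in Ctrl libraries. The groups did not overlap, and the log2 fold change was -0.15 (SE 0.066, edgeR adjusted p = 0.648, 0.131 with the block), lower in 3 of 3 pairs. EPHB4 was the 1 receptor gene without overlap in this comparison, beside 12.6% of all genes. EPHB2 had 58.2, 68.5 and 63.4 CPM in EphB2 libraries, against 59.5, 73.4 and 65.9 CPM in Ctrl libraries. The RNA of the receptor supplied as Fc protein was therefore lower in 3 of 3 pairs, but by a log2 difference of only -0.07 (SE 0.089, edgeR adjusted p = 0.949).

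EPHA2 averaged 302 ± 26.8 CPM in EphB2 cells and 314 ± 55.0 CPM in Ctrl cells (SD, n = 3 each), a log2 difference of -0.05 (SE 0.128). EPHA4 was lower in 3 of 3 pairs, with 4.4, 2.59 and 3.52 CPM in EphB2 libraries, against 4.64, 4.29 and 3.71 CPM in Ctrl libraries. The log2 difference was -0.26 (SE 0.256, edgeR adjusted p = 0.91), a difference about the size of its error, with groups that overlapped. EPHA5 averaged 5.88 ± 1.20 CPM in EphB2 cells and 5.69 ± 2.18 CPM in Ctrl cells. EPHB3 averaged 3.23 ± 1.37 CPM in EphB2 cells and 3.11 ± 0.875 CPM in Ctrl cells. The sparse genes bore no call either. EPHA3, a receptor of ephrin-A5, had 4.01, 2.00 and 11.04 counts in EphB2 libraries, against 12.0, 8.06 and 10.1 counts in Ctrl libraries (log2 difference -0.94, SE 0.499, edgeR adjusted p = 0.732). EPHB1 averaged 0.778 ± 0.0809 CPM in EphB2 cells and 0.576 ± 0.381 CPM in Ctrl cells, and EPHA7 averaged 0.445 ± 0.163 CPM in EphB2 cells and 0.444 ± 0.0807 CPM in Ctrl cells. The median log2 fold change of the 10 genes was -0.02, beside 0.007 over all genes.

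**Figure D4:**
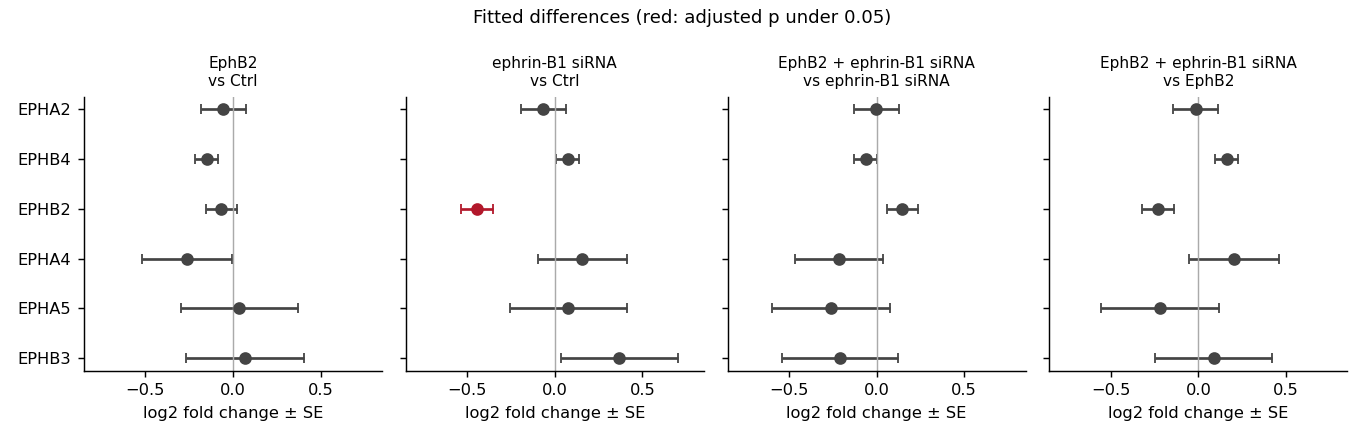
Log2 fold change with its SE from edgeR for the 6 Eph receptor genes with the most counts, a panel for each comparison. The 1 red point, EPHB2 in ephrin-B1 siRNA vs Ctrl at -0.44, is the only value past the adjusted threshold of 0.05.

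With EphB2-Fc given after ephrin-B1 siRNA, EPHB2 lay higher than with the siRNA and Ctrl-Fc, without passing the test. EPHB2 had 54.9, 51.4 and 55.6 CPM in EphB2 + ephrin-B1 siRNA libraries, against 46.4, 47.7 and 52.1 CPM in ephrin-B1 siRNA libraries. It was higher in 3 of 3 pairs, while the groups overlapped between 51.4 and 52.1 CPM. The log2 difference was 0.15 (SE 0.089, edgeR adjusted p = 0.738), and on TPM it was -0.25 (adjusted p = 0.481 from limma), so its sign depended on the unit. With TPM over transcripts of at least 500 bases it was 0.05. The difference of the EphB2-Fc contrasts with and without the siRNA, the interaction, was 0.21 for EPHB2 (SE 0.126, edgeR adjusted p = 1). In that test 0 of 10 receptor genes passed with edgeR, DESeq2, limma or the block, and 0 had an unadjusted p under 0.05. Over all genes 0% passed without the block (498 had an unadjusted p under 0.05) and 0.00463% with it.

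No receptor gene passed in EphB2 + ephrin-B1 siRNA cells against ephrin-B1 siRNA cells with edgeR, DESeq2, limma or the block, and 0 had an unadjusted p under 0.05. Over all genes 0.116% passed (25 genes, while 1827 had an unadjusted p under 0.05), and 6.93% with the block. EPHB4 averaged 163 ± 9.00 CPM in EphB2 + ephrin-B1 siRNA cells and 170 ± 4.29 CPM in ephrin-B1 siRNA cells. EPHA2 averaged 299 ± 28.9 CPM in EphB2 + ephrin-B1 siRNA cells and 300.02 ± 30.3 CPM in ephrin-B1 siRNA cells, a log2 difference of -0.003 (SE 0.128). EPHB3 had 4.13, 2.81 and 3.35 CPM in EphB2 + ephrin-B1 siRNA libraries, against 5.26, 2.98 and 3.70 CPM in ephrin-B1 siRNA libraries, lower in 3 of 3 pairs and overlapping (log2 difference -0.21, SE 0.332). EPHB6 was the 1 receptor gene whose groups did not overlap, beside 14.6% of all genes. This rested on single reads, with 0.314, 2 and 0 estimated counts in EphB2 + ephrin-B1 siRNA libraries, against 4.92, 3 and 4.65 counts in ephrin-B1 siRNA libraries. A count of 0 allows up to 3 counts, or 0.233 CPM in that library, so a fall was not measurable at this depth. EPHB6 had 7.56, 2.79 and 1.11 counts in EphB2 libraries. EPHA4 averaged 4.03 ± 0.739 CPM and EPHA5 averaged 5.06 ± 0.816 CPM in EphB2 + ephrin-B1 siRNA cells, within the range of the other groups' libraries. EPHA3, EPHA7 and EPHB1 averaged 0.332 ± 0.0696, 0.520 ± 0.195 and 0.605 ± 0.248 CPM there. Of the 10 estimates against ephrin-B1 siRNA cells 8 were below 0, with a median of -0.21, beside 0.0007 over all genes.

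Several receptor genes differed between replicate numbers in the same direction in every group. The submitted file names give same-numbered libraries a shared experiment number, so replicates 1 and 2 were compared within each group. EPHA2 had 321, 328, 329 and 376 CPM in the replicate 1 libraries of EphB2 + ephrin-B1 siRNA, EphB2, ephrin-B1 siRNA and Ctrl. It had 267, 274, 269 and 269 CPM in the replicate 2 libraries of the same groups, so replicate 1 was higher in 4 of 4. EPHA4 and EPHB3 were also higher in replicate 1 in all 4 groups, EPHB3 by 0.54 to 1.24 on the log2 scale. EPHA5 was lower in replicate 1 in all 4 groups, with 4.28, 4.51, 3.37 and 3.74 CPM in replicate 1 and 5.91, 6.76, 8.01 and 8.05 CPM in replicate 2. In EPHA2, EPHA5 and EPHB3 replicate 3 lay between replicates 1 and 2 in every group. The same held for the sparse EPHB1, whose direction was mixed, and the share of all genes was not counted. EPHB2, EPHB4 and EPHB6, the genes with groups that did not overlap in some comparison, did not have 1 direction in all 4 groups. In all, 4 of 10 receptor genes had the same direction in the 4 groups, beside 45.4% of all genes tested, a share near that background.

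**Figure D5:**
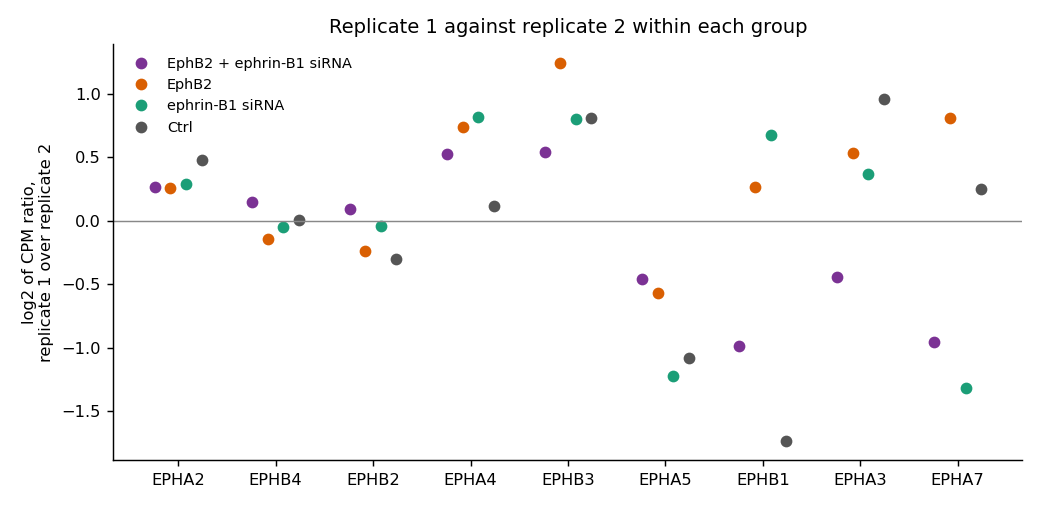
Log2 ratio of CPM in replicate 1 over replicate 2 within each group, a point for each group, for 9 Eph receptor genes (0.1 CPM added to both, EPHB6 left out for its 0 counts). EPHA2, EPHA4 and EPHB3 lie above 0 in all 4 groups and EPHA5 lies below 0 in all 4.

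Among the ligands, only EFNB1 passed the test without the block. Of 8 ephrin genes, EFNB1 alone fell in ephrin-B1 siRNA vs Ctrl (log2 difference -1.35, SE 0.129, edgeR adjusted p = 0.00124) and in EphB2 + ephrin-B1 siRNA vs EphB2 (-1.47, SE 0.131, adjusted p = 0.00189). With the block EFNA2, an ephrin-A ligand, also fell in the first of these (adjusted p = 0.0342), a call that was lost without replicate 3 (log2 difference -0.62, adjusted p = 0.170). EFNA5, a ligand of EphA receptors that also binds EphB2, had a median of 19.7 TPM, EFNA4 had 14.3 TPM and EFNB2, the ligand of EPHB4, had 10.7 TPM. EPHB2, for comparison, had a median of 19.1 TPM. Of the 4 other Eph receptor genes none passed in any comparison. EPHA1 had the highest median of these, 1.45 TPM, above the 1.21 TPM of EPHB3 in the set. In CPM the order was the other way, with medians of 0.771 for EPHA1 and 3.26 for EPHB3. EPHA1 had only 7.97 to 25.1 estimated counts per library, against 30.1 to 105 for EPHB3. EPHA6 had a median of 0.631 TPM and EPHA10 of 0.146 TPM, with log2 fold changes of -0.73 (SE 0.433) and 0.84 (SE 0.82) in EphB2 vs Ctrl.

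Below the receptors, a few genes of forward signaling passed the test in comparisons of the siRNA. In EphB2 vs Ctrl none did without the block. Of 23 kinases and adaptors 1 rose in ephrin-B1 siRNA vs Ctrl, where 1.81% of all genes passed. It was CRK, an adaptor that links Eph receptors to cell movement. CRK had 156, 151 and 150.3 CPM in ephrin-B1 siRNA libraries, against 128, 106 and 117 CPM in Ctrl libraries (log2 difference 0.38, SE 0.081, edgeR adjusted p = 0.0395). It also rose in EphB2 + ephrin-B1 siRNA vs EphB2 (0.42, SE 0.081, adjusted p = 0.0491). Of 14 exchange factors, chimaerins and GTPases 1 rose and 2 fell in the same comparison, beside that 1.81%. ITSN1, an exchange factor for CDC42 that works with EphB2, rose by a log2 difference of 0.36 (SE 0.062, adjusted p = 0.0162). TIAM1, an exchange factor for RAC1, had a log2 difference of -0.33 (SE 0.054, adjusted p = 0.0129).

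CDC42, the small GTPase that ITSN1 activates, showed the widest gap of these 4 called genes. It had 146, 124 and 136 CPM in ephrin-B1 siRNA libraries, against 252, 249.9 and 248 CPM in Ctrl libraries (log2 difference -0.89, SE 0.089, edgeR adjusted p = 0.00154). With EphB2-Fc in both groups it had 166, 132 and 143 CPM in EphB2 + ephrin-B1 siRNA libraries, against 259, 249.7 and 235 CPM in EphB2 libraries (-0.75, SE 0.089, adjusted p = 0.00809). Of the 10 genes for shedding, dephosphorylation and degradation none passed. CBLB, a ubiquitin ligase, and ADAM17, a sheddase, had log2 fold changes of -0.33 (SE 0.201) and -0.40 (SE 0.315) in EphB2 vs Ctrl. With the block the counts were higher, at 7 of 23, 7 of 14 and 6 of 10 genes in ephrin-B1 siRNA vs Ctrl (13.6% of all genes), and at 3, 0 and 0 in EphB2 vs Ctrl (5.34% of all genes). With the block and without replicate 3 they were 2, 4 and 2 in ephrin-B1 siRNA vs Ctrl, and 0 in each list in EphB2 vs Ctrl. Of the marker genes, SLC1A3 of the astrocyte list fell in ephrin-B1 siRNA vs Ctrl (log2 difference -0.97, adjusted p = 0.0259), the comparison in which EPHB2 fell. Summed CPM of the 4 astrocyte markers was 13.8 to 17.5 in ephrin-B1 siRNA and 22.8 to 25.4 in Ctrl libraries. That of the 12 microglia markers was 28.4 to 31.2 in ephrin-B1 siRNA and 24.7 to 32.2 in Ctrl libraries. That of the 11 fibroblast and pericyte markers, mostly COL1A1, was 3803 to 4132 in ephrin-B1 siRNA and 4281 to 4638 in Ctrl libraries. The astrocyte and the fibroblast and pericyte sums thus did not overlap, where 18.1% of all single genes did not. Sums of the microglia, neuron, epithelial, oligodendrocyte and endothelial lists overlapped between these groups. The astrocyte sum was mostly SLC1A3 (median 15.1 CPM, against 3.67 for GFAP and 3.53 for ALDH1L1). Estimates were above 0 in 1 and below 0 in 2 of the 3 astrocyte genes tested. In the fibroblast and pericyte list they were above 0 in 4 and below 0 in 6. The part of these markers in the EPHB2 result was not tested.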

How the data were processed

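RNA of HMC3 cells was sequenced in 12 libraries, 3 in each of 4 groups. The authors quantified reads with kallisto (version not given in the sources used here) against the Ensembl release 109 cDNA sequences of GRCh38. The estimated counts per transcript were deposited without normalization, and the deposited TPM come from the same kallisto run by the authors. Transcripts were paired with genes of GENCODE 44 by identifier (167067 of 188753, holding 95.25% to 95.98% of counts), then summed over each gene's transcripts and rounded. The 10 genes and the gene lists were chosen with earlier results of these data known.

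The test was edgeR 4.0.16 on the 21601 genes reaching 10 counts in all (quasi-likelihood, TMM, all libraries in 1 fit, Benjamini-Hochberg, threshold 0.05), after the fit had been tested on simulated data. The simulated libraries were drawn independently, so the fit was not tested under effects shared by same-numbered replicates. Alternatives were DESeq2 1.42.0, its size factors in edgeR, other filters, only the groups compared, the replicate block, an offset for transcript length, limma 3.58.1 on log2 of TPM + 1 or + 0.1, the most abundant transcript, and leaving out libraries. A block with the length offset and a TPM without transcripts under 500 bases were added after seeing the data. The study gives the 3 libraries of a group as biological replicates of this 1 cell line, so p-values measure the spread between those. Replicate numbers were taken as pairs because submitted file names give them a shared experiment number. Deviations from group means correlated by 0.567 to 0.674 within replicate 1, 0.606 to 0.641 within replicate 2 and 0.0141 to 0.180 within replicate 3. Replicate 3 lay between replicates 1 and 2 for 92.97% to 95.09% of genes 2-fold apart between them. Genes picked for such a gap favor a value within it, and the share for an independent replicate was not computed. All p-values and SDs that count 3 libraries per group, with or without the block, hold only if replicate 3 is an independent experiment. Fits with and without the block were also run without it. Intervals of 0 counts cover counting error only. All 10 receptor genes and EFNB1 are named, with the called genes of each list or, where none was called, the 2 with the smallest p in EphB2 vs Ctrl. EPHA3, EPHA4, EPHA5, EPHA7, EPHB1 and EPHB6 share between 0.144% and 5.89% of their 31-base words with other genes. Figures were drawn with matplotlib 3.10.9 and tables made with Python 3.11.15, numpy 2.4.6, pandas 2.3.3 and R 4.3.3.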

Additional observations from a re-analysis of the deposited data

Results flagged for a closer look

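In CPM, EPHB2 moved in opposite directions with EphB2-Fc in all same-numbered pairs, higher in 3 of 3 with ephrin-B1 siRNA and lower in 3 of 3 without it. This did not hold in TPM. EPHB2 had 15.2, 14.3 and 19.2 TPM in EphB2 + ephrin-B1 siRNA libraries, against 24.1, 14.8 and 20.3 TPM in ephrin-B1 siRNA libraries, lower in each pair. Without the siRNA it was higher in replicate 3, with 21.1 TPM in EphB2 against 18.2 TPM in Ctrl. The share of all genes with such opposite moves was not counted. The difference of the contrasts was 0.21 on the log2 scale (SE 0.126), and the interaction test of edgeR gave an adjusted p of 1 (0.729 with the replicate block), so the opposite directions did not pass a test of their own.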

How the results depend on the processing

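Fold changes of single receptor genes kept their direction and their side of the threshold in 1290 values under the alternatives, and 115 others were values without a call that changed sign. The 1 receptor gene past the threshold in ephrin-B1 siRNA vs Ctrl, EPHB2, became 0 with only the groups compared, with the offset for transcript length (also with the block), with limma on log2 of TPM + 1, of TPM + 0.1 and of TPM without transcripts under 500 bases, and with the most abundant transcript. Leaving out libraries gave 0 to 1. The log2 fold change of EPHB2 there ranged from -0.51 to -0.11, and the offset gave -0.31 (adjusted p = 0.449). In EphB2 + ephrin-B1 siRNA vs EphB2 the count of 0 became 1 with DESeq2 and the replicate block. EPHB2 in EphB2 + ephrin-B1 siRNA cells against ephrin-B1 siRNA cells turned to -0.25 with limma on log2 of TPM + 1 and to -0.26 with TPM + 0.1. The replicate block changed the count of receptor genes in no comparison. Of the 10 genes, 5 kept their rank by TPM in CPM. The cause of these changes was not tested.

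Over all genes, called counts ranged across the other settings from 0 to 1153 in EphB2 vs Ctrl (8 in the fit without a block), from 0 to 2931 in ephrin-B1 siRNA vs Ctrl (391), from 2 to 1496 in EphB2 + ephrin-B1 siRNA cells against ephrin-B1 siRNA cells (25) and 0 to 2146 in EphB2 + ephrin-B1 siRNA vs EphB2 (133), with the highest under the block. With the block and without replicate 3 the counts were 140, 828, 169 and 332 in the same order. The interaction could not be fitted with only the groups compared, since it needs all 4. Depth limited EPHB1, EPHA3, EPHA7 and EPHB6, whose counts per library did not pass 21.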
